A study of Homo sapiens with 8 samples.

Results

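Interferon-stimulated genes are the genes that cells switch on when they sense foreign nucleic acid or receive interferon, and the list described here holds 41 of them outside the IFIT and OAS families, together with the receptors that sense RNA. The members were taken by gene symbol from the deposited array table, with the probe set of highest mean standing for each gene, and 40 of the 41 were found among 20172 gene symbols. STAT2 was not analysed here. USP18 was read from a probe set that also matches the pseudogene USP41P, and the others from probe sets with 1 symbol. PSMB8, PSMB9 and TAP1 each had 3 probe sets with the same values, which counted once.

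The samples were 2 established prostate cancer cell lines, LNCaP, which responds to androgen, and DU145, which grows without it. Both grew in RPMI medium with 10% serum and were transfected 72 hours before RNA was taken. The constructs were miR-29b with its negative control (nc), and siTET2, an siRNA that targets TET2, with its own control (siControl). TET2 removes DNA methylation by oxidising the methyl group of cytosine, and miR-29b is known as a repressor of collagen genes and DNA methyltransferases. There was 1 array for each line and construct, 8 in all, so a difference between 2 arrays of a line has no replicate and no p-value. In bulk RNA, more responding cells and more RNA per cell cannot be told apart.

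Double-stranded RNA inside a cell is bound by RIGI and IFIH1 in the cytoplasm and by TLR3 in endosomes, and these sensors switch on type I and type III interferons. Secreted interferon then acts through JAK kinases on a transcription factor complex that contains STAT2 and IRF9 and binds the interferon-stimulated response element, a repeat of GAAA, in the promoters of its targets. EIF2AK2, the kinase PKR, also binds double-stranded RNA and then halts translation.

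The transfected microRNA and the promoters of members that differed most are shown for reference. RefSeq (GRCh38.p14) lists hsa-miR-29b-3p at 2 loci, chr1:207802450-207802472 and chr7:130877467-130877489, both on the minus strand and with the same 23 bases. The labels do not say which arm was transfected. Its seed, bases 2 to 8, is in capitals:
hsa-miR-29b-3p: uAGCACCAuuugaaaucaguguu

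The motif GAAA, any 2 bases, GAAA, the core of the interferon-stimulated response element, was searched on both strands of RefSeq's promoter windows, which run from 250 bases before to 50 bases after each annotated start. Of the 40 members, 35 had a window, and 24 of these genes (68.6%) held the motif in at least 1 window. Among all 27305 genes with a window the share was 4.38%, and among all 35116 windows it was 3.57%. Such a match is a description of the letters and is not a bound site. Stretches of 80 bases with the motif in capitals (read as TTTC, any 2 bases, TTTC where it lies on the other strand; overlapping motifs run together) are given for 4 of the 5 members at least 2-fold higher with miR-29b than with nc in LNCaP (RSAD2, IFI44L, IFI6, HERC5; DTX3L, the other, also held the motif), for 3 that were higher with the siRNAs in DU145 (DDX60, IFI44, SAMD9), and for 3 that held the motif and were within 0.23 of nc with miR-29b in LNCaP (ISG15, BST2, IFI27).
RSAD2, chr2:6877597-6877676, plus strand: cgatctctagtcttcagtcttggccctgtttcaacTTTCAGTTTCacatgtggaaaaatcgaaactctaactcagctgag
IFI44L, chr1:78620340-78620419, plus strand: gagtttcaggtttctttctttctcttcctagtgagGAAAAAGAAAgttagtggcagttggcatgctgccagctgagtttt
IFI6, chr1:27672273-27672352, minus strand: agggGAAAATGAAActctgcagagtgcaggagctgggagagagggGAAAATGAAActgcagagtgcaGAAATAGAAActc
HERC5, chr4:88456984-88457063, plus strand: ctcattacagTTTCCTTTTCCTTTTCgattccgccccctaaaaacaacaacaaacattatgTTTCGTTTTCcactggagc
DDX60, chr4:168318779-168318858, minus strand: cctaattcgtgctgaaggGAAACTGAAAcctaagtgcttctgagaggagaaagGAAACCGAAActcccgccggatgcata
IFI44, chr1:78649709-78649788, plus strand: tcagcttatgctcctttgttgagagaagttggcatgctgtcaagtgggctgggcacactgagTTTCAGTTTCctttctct
SAMD9, chr7:93118071-93118150, minus strand: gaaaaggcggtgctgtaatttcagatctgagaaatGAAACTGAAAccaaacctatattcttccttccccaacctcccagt
ISG15, chr1:1013352-1013431, plus strand: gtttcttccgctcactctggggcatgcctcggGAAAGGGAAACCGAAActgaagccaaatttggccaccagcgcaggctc
BST2, chr19:17405713-17405792, minus strand: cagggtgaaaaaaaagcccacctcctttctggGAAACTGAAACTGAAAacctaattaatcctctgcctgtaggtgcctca
IFI27, chr14:94110599-94110678, plus strand: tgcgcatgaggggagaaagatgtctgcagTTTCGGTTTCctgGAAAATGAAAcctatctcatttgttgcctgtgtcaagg

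Most members held the motif whether or not they differed with miR-29b. It was in 8 of the 10 members that were at least 1.5-fold higher with miR-29b in LNCaP and in 16 of the other 25 with a window (64.0%). RIGI and HERC6 are the 2 of those 10 with no match, which says only that these letters are not in their windows.

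The deposited values are RMA expression values, read here as log2, and lay between 2.03 and 14.48. The medians over all probe sets differed between the lines (7.10 to 7.17 in LNCaP and 6.59 to 6.66 in DU145), so levels are compared within a line only. TET2, the siRNA's target, was 9.01 with siControl and 7.89 with siTET2 in LNCaP, and 7.85 and 6.60 in DU145. It was also lower with miR-29b (8.59) than with nc (9.24) in LNCaP, and 7.79 and 7.96 in DU145, and its part in the miR-29b differences was not tested. With siTET2 it fell by 1.18 in a fit common to both lines (SE 0.124, limma adjusted p = 0.0181). The LNCaP arrays held 5 or 6 of 6 LNCaP markers at or above the array median, and 1 of 10 DU145 markers. For the DU145 arrays these counts were 1 of 6 and 8 of 10. CD68 was the 1 of 11 immune cell markers that reached the median in every array. Their summed log2 level ran from 63.4 to 65.4 in LNCaP and from 58.1 to 60.3 in DU145, and was 65.4 with nc and 64.9 with miR-29b in LNCaP. In DU145 it was 58.1 with nc, 59.6 with miR-29b, 59.5 with siControl and 60.3 with siTET2, lowest with nc, and its part in the differences between DU145 arrays was not tested. None of 3 markers of plasmacytoid dendritic cells, a strong source of interferon, reached the array median in any array.

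In LNCaP, the array with miR-29b held the highest levels of this list. Against nc, 10 of the 40 members were at least 1.5-fold higher and 5 of them at least 2-fold, where 0.663% and 0.0842% of 18995 genes were. No member was 1.5-fold lower (0.379% of all genes). The median over members was 0.36 on the log2 scale, against -0.02 over all genes, and 37 of 40 lay above 0, against 45.5% of all genes. For 29 of 40 members the miR-29b array was the highest of the 4 LNCaP arrays, as it was for 21.6% of all genes. The order was counted after the values were seen.

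**Figure D1:**
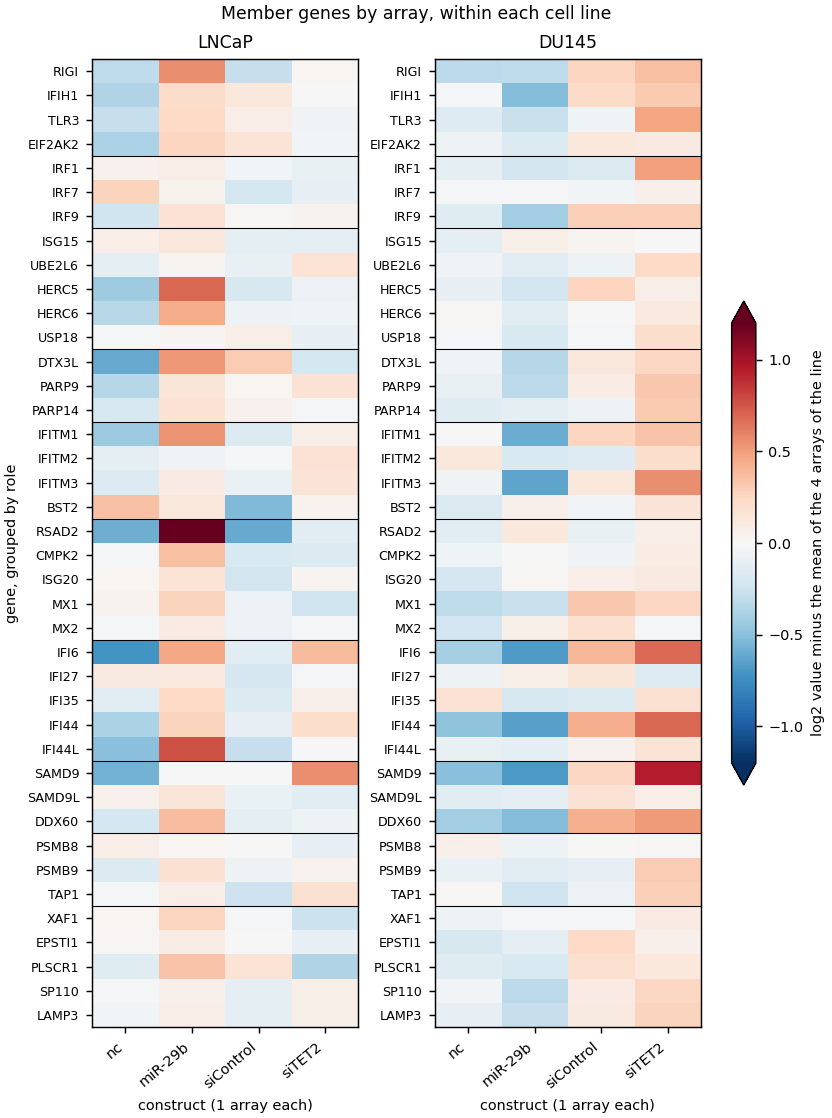
Each cell is a member's log2 value minus its mean over the 4 arrays of the same line, with members grouped by role (black lines) and 1 column per array; red is higher and blue lower, and values beyond 1.2 take the end colour. In LNCaP the red column is miR-29b, whose array is the highest for 29 of 40 members, and in DU145 the red columns are siControl and siTET2, which both lie above both miRNA arrays for 24 of 40.

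The effector RSAD2 (viperin), an enzyme that makes a chain-terminating nucleotide against viral polymerases, differed most. Its log2 values in LNCaP were 5.80 (nc), 7.69 (miR-29b), 5.78 (siControl) and 6.26 (siTET2), from probe set 8040080. The miR-29b array stood 3.72-fold above nc (log2 1.89), the control arrays were 0.02 apart, and siTET2 lay between. In DU145 the values were 3.86, 4.12, 3.90 and 4.07 in the same order, near the bottom of the scale in all 4 arrays. CMPK2, a nucleotide kinase whose gene neighbours RSAD2, was 0.38 higher with miR-29b than with nc in LNCaP and 0.06 higher in DU145. Its 4 DU145 values spanned less than those of LNCaP.

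Of the IFI genes, IFI44L, a cytoplasmic protein strongly induced by interferon, followed RSAD2. Its LNCaP values were 6.005 (nc), 7.27 (miR-29b), 6.23 (siControl) and 6.50 (siTET2), a 2.40-fold difference between miR-29b and nc. Its DU145 values were 3.89, 3.87, 4.04 and 4.15. IFI6, a mitochondrial protein that opposes cell death and blocks flavivirus replication, was already higher in the second control array. It was 8.85 with nc, 10.02 with miR-29b, 9.44 with siControl and 9.94 with siTET2 in LNCaP. The miR-29b array was 2.26-fold above nc, but siTET2 reached nearly the same level. IFI44, the paralogue and neighbour of IFI44L, was 6.33, 6.98, 6.60 and 6.92 in the same arrays. As with IFI6, miR-29b and siTET2 were close and nc was lowest. IFI35, a partner of the interferon-induced protein NMI, was 0.38 higher with miR-29b, and IFI27 differed by 0.0029.

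The ISG15 system attaches the ubiquitin-like protein ISG15 to other proteins, and its ligase HERC5 differed more here than ISG15 itself. HERC5, the main ISG15 ligase in human cells, in LNCaP was 6.51 (nc), 7.62 (miR-29b), 6.74 (siControl) and 6.86 (siTET2). The miR-29b array was 2.16-fold above nc and above all others. HERC6, a related ligase, was 7.85, 8.64, 8.12 and 8.14, with miR-29b again highest. ISG15 itself was 0.05 higher with miR-29b than with nc, UBE2L6, its conjugating enzyme, 0.15, and USP18, which removes ISG15 and restrains interferon signalling, 0.05.

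The 4 RNA sensors were all higher with miR-29b than with nc in LNCaP, by 0.52 to 0.86. RIGI, which recognises short double-stranded RNA with 5′ phosphates, was 7.61 (nc), 8.47 (miR-29b), 7.64 (siControl) and 7.94 (siTET2). Its miR-29b array stood 1.81-fold above nc and the control arrays were 0.03 apart. IFIH1 (MDA5), which binds long double-stranded RNA, was 6.77, 7.36, 7.26 and 7.14, so that only nc was low. TLR3 was 7.59, 8.10, 7.94 and 7.81, and EIF2AK2 was 9.33, 9.96, 9.87 and 9.68. In IFIH1, TLR3 and EIF2AK2 the siControl array was within 0.09 to 0.17 of miR-29b. RIGI was 0.83 above siControl.

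DTX3L and PARP9 form a complex that ubiquitylates and ADP-ribosylates proteins at damaged DNA and aids interferon signalling. DTX3L in LNCaP was 8.25 (nc), 9.38 (miR-29b), 9.16 (siControl) and 8.64 (siTET2). It was 2.19-fold higher with miR-29b than with nc, but 0.22 above siControl on the log2 scale. PARP9, whose gene lies beside DTX3L, was 8.12, 8.61, 8.48 and 8.64. PARP14, another ADP-ribosyltransferase, was 0.37 higher with miR-29b than with nc.

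Of the membrane proteins that hinder virus entry and release, IFITM1 differed most. It in LNCaP was 7.22 (nc), 8.21 (miR-29b), 7.49 (siControl) and 7.74 (siTET2), 1.99-fold higher with miR-29b than with nc. Its relative IFITM3 was 9.60, 9.86, 9.68 and 9.91, and IFITM2 was 0.07 higher with miR-29b than with nc. These genes are close paralogues, and cross-hybridisation between their probes was not tested. BST2 (tetherin), which holds budding virus at the cell surface, went against the rest: it was 6.24, 6.02, 5.36 and 5.93, highest with nc and lowest with siControl.

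SAMD9 and DDX60 lay just below the 1.5-fold line with miR-29b in LNCaP. SAMD9, an antiviral translation inhibitor, was 6.57 (nc), 7.14 (miR-29b), 7.13 (siControl) and 7.69 (siTET2). DDX60, a helicase linked to RIGI signalling, was 6.97, 7.55, 7.07 and 7.12, with miR-29b apart from the other arrays. IFIH1, at 0.58, was the other member next to that line. PLSCR1, a phospholipid scramblase, was 4.71, 5.19, 5.02 and 4.49 in LNCaP, a low level at which siTET2 was lowest.

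The 3 IRF transcription factors were under 1.5-fold from nc with miR-29b in LNCaP, at 0.41 for IRF9, 0.03 for IRF1 and -0.23 for IRF7. IRF9, the DNA-binding subunit of the interferon-activated complex, in LNCaP was 7.65 (nc), 8.06 (miR-29b), 7.90 (siControl) and 7.92 (siTET2). IRF7, the amplifier of type I interferon genes, was 8.28, 8.05, 7.80 and 7.92, and IRF1 was 6.48, 6.51, 6.39 and 6.34. MX1, the antiviral GTPase often used as a marker of interferon action, was 6.39, 6.61, 6.28 and 6.11. Classical targets such as MX1, ISG15 and IFI27 were therefore within 0.23 of nc while RSAD2, IFI44L and HERC5 differed by over 1.

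**Figure D2:**
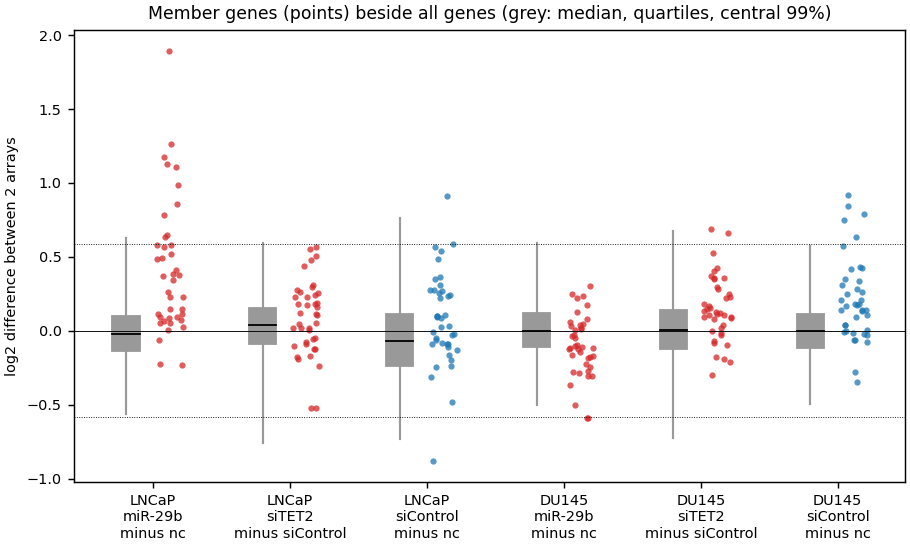
Each red or blue point is 1 of 40 members, plotted by its log2 difference between the 2 arrays named on the x axis (red for a treatment, blue for the pair of control arrays); the grey bar, black line and whisker give the quartiles, the median and the central 99% of 18995 genes, and dotted lines mark 1.5-fold. Members extend upwards with miR-29b in LNCaP, where 10 pass 1.5-fold, and in the control pair of DU145, where 5 do.

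The choice of control changes part of this account. Against siControl in place of nc, 6 members were at least 1.5-fold higher with miR-29b in LNCaP (0.7% of all genes), and the median was 0.24, against 0.05 over all genes. At least 1.5-fold above each of the 2 control arrays were 5 of 40 members (0.137% of all genes), namely RSAD2, IFI44L, HERC5, RIGI and IFITM1. The other member past 1.5-fold against siControl was BST2, at 0.66, whose value with siControl was low. DTX3L, EIF2AK2, HERC6 and IFI44 were under 1.5-fold against siControl, at 0.22, 0.09, 0.51 and 0.37, and IFI6, at 0.58, lay just under it. Between the 2 control arrays of LNCaP, 2 members were at least 1.5-fold higher with siControl (DTX3L at 0.91 and IFI6 at 0.59; 1.56% of all genes) and 1 was lower (BST2 at -0.88; 2.3%). The median over members was 0.06, against -0.07 over all genes, and 22 of 40 lay above 0 (40.1%).

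Whether the LNCaP difference exceeded the spread between control arrays was asked with limma, taking nc and siControl of a line as 1 control group. These are different constructs, so the spread in this fit includes the difference between them, and there were 2 residual degrees of freedom. Of the 40 members, 14 had a mean over the 8 arrays at or above the median of all genes, and none of the 14 passed a limma adjusted p of 0.05 (0.0% of 9498 genes in either direction). At an unadjusted p below 0.05, 5 of the 14 were higher (1.27% of genes) and 0 lower (1.76%). RIGI was 0.84 above the mean of the controls (SE 0.204, limma adjusted p = 0.772), HERC6 0.65 (SE 0.159, limma adjusted p = 0.772) and IFI6 0.88 (SE 0.289, limma adjusted p = 1).

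RSAD2 has a mean below that level and was tested only where all 18995 genes were fitted. There it rose by 1.90 with miR-29b (SE 0.165, limma adjusted p = 0.00506) and was the only gene called. Its SE rests on the control arrays, which were 0.02 apart in LNCaP and 0.04 in DU145, since miR-29b has 1 array in each line. In the fit over both lines RSAD2 was 1.07 higher with miR-29b than with nc (SE 0.356, limma adjusted p = 1) and did not pass. IFI44L was 1.15 above the controls (SE 0.179, limma adjusted p = 0.225), HERC5 0.99 (SE 0.200, limma adjusted p = 0.764) and IFITM1 0.85 (SE 0.193, limma adjusted p = 1). For RSAD2, a variance trend left the difference at 1.90 and quantile normalization gave 2.10, on the same arrays. With 1 control array left out, and 1 residual degree of freedom, the fit called 1 of the 14 members without LNCaP nc (0.642% of 9498 genes), 5 without LNCaP siControl (0.684%) and 2 without either DU145 control (0.105%).

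**Figure D3:**
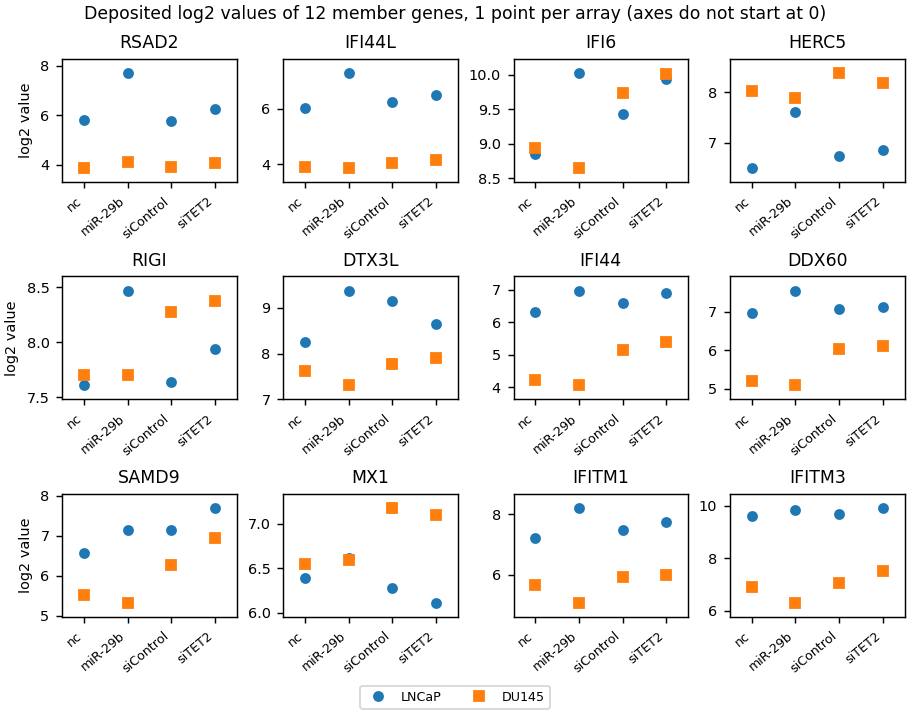
Deposited log2 values of 12 members are shown with 1 point per array, circles for LNCaP and squares for DU145; the vertical axes differ between panels and the lines should not be set against each other, since their overall medians differ. RSAD2 and IFI44L stand high in 1 LNCaP array, miR-29b, whereas IFI44, DDX60, SAMD9 and MX1 stand high in both DU145 siRNA arrays.

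In DU145 the list followed another order. The siControl and siTET2 arrays both lay above both the nc and the miR-29b array in 24 of 40 members, an order found in 19.0% of all genes, and the opposite order in 0 of 40 (20.4% of all genes). In LNCaP the order of the siRNA arrays above the miRNA arrays held for 1 member, IFITM2 (17.0% of all genes), and its opposite for 12 (30.4%). The sources used here do not say whether siRNA and miRNA transfections shared a day or a batch, so the kind of construct and a batch cannot be told apart.

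The pair of DU145 control arrays showed this most directly. With siControl, 5 of 40 members were at least 1.5-fold higher than with nc (0.474% of all genes) and 0 were lower (0.195%). The median over members was 0.17, against 0.0015 over all genes, and 30 of 40 lay above 0 (50.3% of all genes). IFI44 was 4.22 (nc), 4.05 (miR-29b), 5.14 (siControl) and 5.39 (siTET2), and DDX60 was 5.19, 5.09, 6.04 and 6.12. In both genes the siRNA arrays were close to each other and the miRNA arrays close to each other, with a gap of over 0.8 between the pairs.

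IFI6 and SAMD9 shared that split in DU145. IFI6 was 8.94 (nc), 8.65 (miR-29b), 9.73 (siControl) and 10.01 (siTET2). SAMD9 was 5.51, 5.33, 6.26 and 6.95. For both, siTET2 was the highest array and miR-29b the lowest. Over the list, siTET2 was the highest DU145 array for 28 of 40 members (29.8% of all genes). MX1, which differed little in LNCaP, was 6.54, 6.59, 7.18 and 7.10 in DU145, a 1.55-fold difference between siControl and nc.

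The sensors spanned 0.30 to 0.84 over the DU145 arrays. RIGI was 7.70 (nc), 7.70 (miR-29b), 8.27 (siControl) and 8.38 (siTET2), so that the miRNA arrays were level and the siRNA arrays 0.57 or more above them. IFIH1 was 6.20, 5.70, 6.44 and 6.53, lowest with miR-29b. TLR3 was 5.57, 5.46, 5.68 and 6.21, and EIF2AK2 was 10.20, 10.08, 10.38 and 10.37. The TLR3 value with siTET2 stood apart from its other 3 arrays, while EIF2AK2 spanned 0.30.

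With miR-29b itself, DU145 showed no counterpart of the LNCaP difference. Against nc, 0 of 40 members were at least 1.5-fold higher (0.558% of all genes) and 2 were lower (0.179%), IFITM1 and IFITM3, both at -0.59. IFITM1 was 5.66 (nc), 5.07 (miR-29b), 5.92 (siControl) and 5.998 (siTET2), and IFITM3, which blocks virus fusion in endosomes, was 6.90, 6.30, 7.07 and 7.50. The miR-29b array was the lowest of the 4 for both. The median over members was -0.11, against -0.0026 over all genes, and 14 of 40 lay above 0 (49.2%).

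For 26 of 40 members miR-29b was the lowest of the 4 DU145 arrays (22.0% of all genes). Against siControl, 9 members were at least 1.5-fold lower with miR-29b (0.526% of all genes), and against the average of nc and siControl 5 were at least 1.5-fold lower (0.153%). In the within-line fit, 0 of 14 members passed a limma adjusted p of 0.05 (0.0% of 9498 genes), and 3 were lower at an unadjusted p below 0.05 (0.705% of genes), IFITM3, IFI6 and IRF9. IFITM3 was -0.68 from the controls (SE 0.151, limma adjusted p = 1). IRF9 was 7.47 (nc), 7.20 (miR-29b), 7.91 (siControl) and 7.90 (siTET2), and PARP9 was 6.33, 6.11, 6.51 and 6.74, both lowest with miR-29b. DTX3L was 7.61, 7.31, 7.78 and 7.90 with the same order as PARP9. HERC5 was 8.02, 7.89, 8.37 and 8.18, HERC6 was 8.48, 8.34, 8.45 and 8.58, and PLSCR1 was 8.98, 8.94, 9.32 and 9.25.

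The opposite directions in the 2 lines were compared gene by gene. With miR-29b against nc, 25 of 40 members were higher in LNCaP and lower in DU145, an order found in 25.1% of all genes. In the within-line fit, the LNCaP difference minus the DU145 difference had a limma adjusted p below 0.05 for 0 of 14 members (0.0% of 9498 genes) and an unadjusted p below 0.05 for 7 of 14, all with the higher difference in LNCaP (1.0% of genes). IFI6 gave 1.56 (SE 0.408, limma adjusted p = 1), RIGI 1.12 (SE 0.288, limma adjusted p = 1) and IFITM3 0.90 (SE 0.214, limma adjusted p = 1). With all genes fitted, RSAD2 gave 1.67 (SE 0.234, limma adjusted p = 0.434) and IFITM1 1.57 (SE 0.273, limma adjusted p = 0.521). With 1 control array left out, 7 of the 14 members passed without LNCaP siControl (0.337% of 9498 genes), 2 without LNCaP nc (0.179%), 2 without DU145 nc (0.0632%) and 0 without DU145 siControl (0.0316%). A p that misses the threshold does not show that the lines responded alike.

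**Figure D4:**
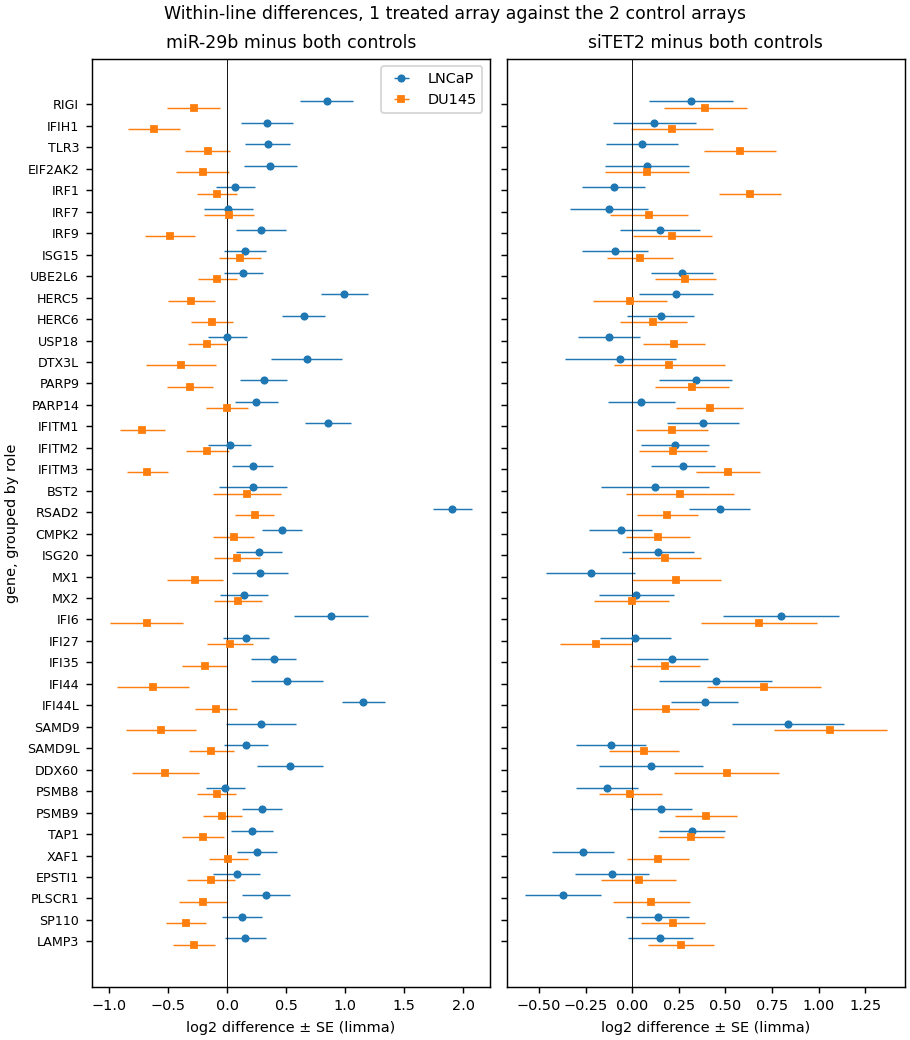
Points give each member's log2 difference between the treated array and the mean of both control arrays of its line, with bars of 1 SE from the limma fit of all genes (circles for LNCaP, squares for DU145), for miR-29b on the left and siTET2 on the right. With miR-29b, RSAD2 (1.90 in LNCaP) and IFI44L (1.15) lie farthest right and the DU145 points lie mostly at or left of 0; with siTET2, SAMD9 and IFI6 lie right of 0 in both lines.

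The question of the siTET2 arrays was whether loss of TET2 shifted the list. In LNCaP, 0 of 40 members were 1.5-fold higher (0.526% of all genes) and 0 lower (1.47%) than with siControl, and the median was 0.11, against 0.04 over all genes, with 27 of 40 above 0 (58.6% of all genes). In DU145, 2 were higher (0.948% of all genes) and 0 lower (1.24%), and the median was 0.12, against 0.0069, with 30 of 40 above 0 (51.5%). In both lines together, siTET2 was above siControl for 22 of 40 members (34.0% of all genes) and below it for 5 (23.9%).

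SAMD9 was the member with the largest difference in DU145 (0.69) and was 0.55 higher in LNCaP. Its level with siTET2 was the highest of the 4 arrays in both lines. IRF1, a transcription factor induced by interferon gamma, was the other member past 1.5-fold in DU145. It was 7.21 (nc), 7.10 (miR-29b), 7.15 (siControl) and 7.81 (siTET2) there, and -0.06 from siControl in LNCaP. IRF7 was 7.27, 7.29, 7.27 and 7.36 in the DU145 arrays. BST2 was 4.56, 4.80, 4.71 and 4.89 in DU145, where siTET2 was 0.18 above siControl. Its siTET2 difference of 0.56 in LNCaP was taken from a low siControl array, and siTET2 was -0.32 from nc in that line.

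Antigen processing genes were among those higher with siTET2. TAP1, which carries peptides into the endoplasmic reticulum for MHC class I, was 0.44 higher in LNCaP and 0.35 in DU145. PSMB9, a subunit of the immunoproteasome, was 0.11 and 0.40 higher, and PSMB8, another, differed by -0.09 and 0.02. UBE2L6 was 0.25 and 0.29 higher, and IFITM2 0.18 and 0.36.

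A limma fit over both lines, which takes each construct's effect as the same in LNCaP and DU145 and leaves 3 residual degrees of freedom, called 0 of the 14 members for siTET2 minus siControl (0.0316% of 9498 genes higher and 0.347% lower). At an unadjusted p below 0.05, 3 of the 14 were higher (5.53% of 9498 genes) and 0 lower (8.33%). TAP1 was 0.40 higher (SE 0.123, limma adjusted p = 0.206), UBE2L6 0.27 (SE 0.0947, limma adjusted p = 0.244) and IFITM2 0.27 (SE 0.111, limma adjusted p = 0.331). The same fit called 0 of 14 for miR-29b minus nc and 0 of 14 for siControl minus nc (0.0% of genes in either direction for both). At an unadjusted p below 0.05, 0 were past for miR-29b minus nc, against 1.15% of genes higher and 2.66% lower. For siControl minus nc 1 of 14 was, near the share over all genes (7.01% higher and 6.33% lower). It was EIF2AK2, at 0.36 (SE 0.158, limma adjusted p = 0.371). With all genes fitted, SAMD9 was 0.62 higher with siTET2 (SE 0.227, limma adjusted p = 0.555). In the within-line fit, no member passed for siTET2 in either line. Over all genes, 0.0211% passed higher and 0.0105% lower in LNCaP, and 0.221% and 0.547% in DU145. At an unadjusted p below 0.05 the higher members were IFI6 in LNCaP (2.05% of genes) and IFITM3, PSMB9 and IFI6 in DU145 (4.13%). IFITM3 was 0.51 above the DU145 controls (SE 0.151, limma adjusted p = 0.197). With 1 control array left out, 1 member passed in LNCaP without LNCaP siControl (1.9% of 9498 genes) and 0 otherwise (0.137% to 3.5%). In DU145, 2 passed without either LNCaP control (6.44%), 1 without DU145 siControl (0.948%) and 0 without DU145 nc (0.505%). The labels name 1 construct against TET2, so loss of TET2 and other effects of that siRNA cannot be told apart.

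The remaining 18 members, those not given array by array, spanned 0.17 to 0.54 over the 4 arrays of LNCaP and 0.12 to 0.57 over those of DU145. They include MX2 and ISG20, an exonuclease that degrades single-stranded RNA, SAMD9L, XAF1, EPSTI1, SP110 and LAMP3. Across all 40 members, 13 spanned at least 1.5-fold in LNCaP (8.28% of all genes) and 14 in DU145 (6.41%).

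Other genes of the pathway show which steps moved alongside. Of the 8 IFIT and OAS genes, 6 were at least 1.5-fold higher with miR-29b than with nc in LNCaP (median 0.92; 0.663% of all genes). With siControl against nc in DU145, 5 were (median 0.85; 0.474% of all genes). For siTET2 minus siControl in DU145 their median was -0.15, with 1 of 8 above 0, where the members had a median of 0.12. IFIT2, which binds viral RNA and promotes cell death, was 2.62 higher with miR-29b in LNCaP and 1.31 higher with siControl in DU145. Of 12 interferons and receptors, 1 was 1.5-fold higher with miR-29b in LNCaP (0.663% of all genes). It was IFNL1, a type III interferon (6.95 with nc and 7.62 with miR-29b). The other type III interferons listed, IFNL2 and IFNL3, were -0.24 and -0.05 from nc in the same comparison. Over the list, 7 of the 12 lay above 0. Between the LNCaP control arrays, IFNL2 was past 1.5-fold lower with siControl than with nc (-0.65, against 2.3% of all genes). IFNB1, a type I interferon of epithelial cells picked out after its values were seen, was 4.30 with nc and 4.51 with miR-29b, near the bottom of the scale. In DU145, 0 of the 12 passed 1.5-fold in any of the 3 comparisons.

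Genes of interferon signalling differed little. Of 9 JAK-STAT and feedback genes, 0 passed 1.5-fold in either direction in any comparison. JAK1, the kinase shared by interferon receptors, was 7.18 to 7.36 in LNCaP, below every LNCaP array's median over all genes (7.67 to 7.74), and 10.58 to 10.91 in DU145, above that line's medians (7.39 to 7.44). SOCS1, a feedback inhibitor of JAK kinases, was 0.34 lower with miR-29b than with nc in LNCaP.

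Of 13 adaptors and further sensors, 0 passed 1.5-fold in any comparison. MAVS, the mitochondrial adaptor of RIGI and IFIH1, was 0.40 lower with miR-29b than with nc in LNCaP and 0.52 higher with siTET2 than with siControl in DU145. Of 7 antigen presentation genes, 0 passed 1.5-fold. Of 18 other interferon-induced genes, 0 did with miR-29b in LNCaP. With siTET2, TRIM22 was higher in LNCaP (0.92; 0.526% of all genes) and LGALS3BP in DU145 (0.79; 0.948%). RTP4 was lower with siControl than with nc in LNCaP (-0.75; 2.3% of all genes). In the common limma fit, 0 of the 4 IFIT and OAS genes, 0 of the 6 interferons and receptors, 0 of the 7 JAK-STAT genes, 0 of the 9 adaptors, 0 of the 5 antigen presentation genes and 0 of the 10 other interferon-induced genes tested passed an adjusted p of 0.05 in any comparison. In the within-line fit over probe sets with 1 symbol, LGALS3BP, a secreted glycoprotein, rose with siTET2 in DU145 (0.75, SE 0.157, limma adjusted p = 0.0475), and in the same fit over all probe sets its limma adjusted p was 0.0544.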

How the data were processed

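Per the labels, total RNA was extracted with ISOGEN and labelled with the Affymetrix whole transcript kit. The submitters' processing notes name Expression Console (Affymetrix) and RMA, with no version. The authors deposited 1 table of 33297 probe sets by 8 arrays, read here as log2 values because RMA gives that scale. The table does not state the log base or which arrays were normalized together. The labels name no separate cultures, so no p-value rests on a spread between replicate cultures. In the within-line fit the spread is the difference between the nc and siControl arrays of a line. In the fit over both lines it is how far the differences between constructs vary from LNCaP to DU145.

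Of the probe sets, 19460 had 1 symbol in the platform annotation, 1754 had several and 12083 were unlisted; Entrez identifiers against RefSeq changed 0 symbols. This gave 18995 probe sets for 20172 symbols. Other gene lists used probe sets with 1 symbol. Differences between 2 arrays were counted at 1.5-fold and 2-fold with no level floor. limma 3.58.1 (R 4.3.3; lmFit, eBayes, Benjamini-Hochberg over all genes fitted, threshold 0.05) was fitted to 9498 genes with a mean at or above the median, and tested on simulated data. Values in every array were given for members spanning at least 1.5-fold in a line and for the sensors and IRF genes; of other lists, up to 4 genes were named. The members and lists were chosen with earlier results of these data known.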

Additional observations from a re-analysis of the deposited data

Results flagged for a closer look

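With 1 array per group, members were picked out here for opposite directions in the 2 lines under the same contrast, with at least 1.5-fold in 1 of them. For miR-29b minus nc, the LNCaP difference exceeded the DU145 difference by 1.58 for IFITM1, 1.46 for IFI6, 1.43 for DTX3L, 1.29 for IFI44L, 1.23 for HERC5, 0.93 for HERC6, 0.85 for IFITM3, 0.81 for IFI44 and 0.75 for EIF2AK2. For siTET2 minus siControl, the LNCaP difference of IRF1 lay below that of DU145, by -0.72. These single-array differences were not tested; the within-line fit against both controls, in which the differences between lines were tested, called none of these genes at a limma adjusted p of 0.05.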

How the results depend on the processing

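Counts of members past 1.5-fold depended on the control array. With the other control of the line, 6 members were higher with miR-29b in LNCaP (median 0.24; 0.7% of all genes), 2 with siTET2 in LNCaP (median 0.20; 1.1%) and 8 with siTET2 in DU145 (1.63%), and 9 were lower with miR-29b in DU145 (0.526%). With the mean of both controls, these were a median of 0.28 for miR-29b in LNCaP, 2 (0.363%) and 4 (0.995%) for siTET2, and 5 lower (0.153%). A level floor on the mean of the line kept 16 of 40 members in each line. Of these, 5 were higher with miR-29b in LNCaP, 0 with siTET2 in DU145 and 1 with siControl in DU145. Of the same members, 0 were lower with siControl in LNCaP or with miR-29b in DU145. A floor on the higher array gave 6 (of 18 members kept), 1, 1, 0 and 0 in the same order. Such a floor admits a gene through the array where it is high. Shares over all genes under either floor were not counted. Quantile normalization gave 1 for siTET2 in LNCaP, and centring gave 4 higher (median 0.13) for siControl in LNCaP. Shares over all genes under quantile normalization and centring were not counted either, so these counts have no background beside them. Under the floor on the line's mean, the array orders held for 9 of the 16 members kept in each line. Their shares over all genes were not counted. This alternative and the RSAD2 settings without a floor were chosen after seeing the data.

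In the limma fit over both lines, 36 genes passed for siTET2, against 1 without the floor, 80 with a floor at the 75th percentile, 99 with a trend, 15 with the other control and 0 to 141 with 1 array left out. In the within-line fit without the floor, 1 member, RSAD2, was also the 1 gene that passed for miR-29b in LNCaP, and 0 genes passed for siTET2 in LNCaP and 23 in DU145. A trend gave 6 and 135, and quantile normalization 37 in DU145. With 1 control array left out, members called ran from 1 to 5 (miR-29b, LNCaP), 0 to 2 (miR-29b, DU145), 0 to 1 (siTET2, LNCaP), 0 to 2 (siTET2, DU145) and 0 to 7 (miR-29b, LNCaP minus DU145). All genes called ran from 10 to 65, 0 to 14, 13 to 332, 48 to 612 and 3 to 32 in the same order, and from 4 to 122 for siTET2 between lines. The cause was not tested, other than that such fits have 1 residual degree of freedom. Of the single-gene values, 125 array differences stayed past 1.5-fold in the same direction under another setting, and 9 fell under it. Genes that a level floor removed were not counted. Of the fitted values, 204 kept their call, and the others changed it only with a control array left out. Replicates could not be paired, because each line and construct has 1 array and the labels give no replicate numbers. The fit over both lines matches the constructs by cell line, which is a term in it. Most members (26 of 40) lay below the floor, where array signal is nearest background.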
